A study of Homo sapiens with 8 samples.

Results

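The genes described here are 43 genes of DNA double-strand break repair, interstrand crosslink repair and the DNA damage checkpoint. They were chosen by name from the table of normalized counts, and all 43 listed genes were present among its 13307 genes. Expression was measured by mRNA sequencing in Panc-1, a human line that was established from a ductal carcinoma of the pancreas. The cells were transfected with a non-targeting control siRNA (siControl) or with siRNAs against *PHF13* (siPHF13), which encodes a PHD finger protein that reads histone H3 methylated at lysine 4. They were then left untreated or cultured with 10 ng/ml of TGFβ for 48 h, a treatment that induces the epithelial-mesenchymal transition (EMT). The 4 groups, siControl, siPHF13, siControl + TGFβ and siPHF13 + TGFβ, held 2 libraries each. All groups therefore shared 1 cell line, and all had been transfected with an siRNA. The labels do not say whether the 2 libraries of a group came from separate cultures, so the p-values measure the spread between libraries, which may be technical.

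A double-strand break is repaired either by end joining, which ligates the ends directly, or by homologous recombination, which copies the intact sister chromatid and is used mainly in the S and G2 phases. In recombination the ends are recognized and resected, the BRCA proteins prepare the single-stranded DNA for strand exchange, and further proteins pair it with the sister strand. The Fanconi anemia proteins detect crosslinks between the strands, and the kinases ATM and ATR signal damage to the cell cycle. Many genes of recombination and of the Fanconi pathway are transcribed from late G1 to S phase under the control of E2F factors.

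The genes of the table held 39196214 to 46700806 reads per library, and the mean of a repair gene over the 8 libraries ranged from 262.9 (*RAD51B*) to 34700 (*PRKDC*) normalized counts, the gene counts divided by a size factor of each library. The siRNAs left 31.2% of the *PHF13* level without TGFβ (1804.0 and 1662.4 normalized counts in siControl, 524.2 and 558.3 in siPHF13) and 31.6% with TGFβ. Of 5 markers of the pancreatic duct 5 were in the table, with a summed level of 121692 to 203975 normalized counts. In siControl the sum lay mainly in *KRT8* (116542), *KRT18* (48208) and *KRT19* (33372), while *KRT7* had 419.7 and *EPCAM* had 157.6. Of the markers of other cell types, 0 of 6 acinar genes were in the table, 1 of 5 immune genes (*CD68*), 1 of 4 endothelial genes (*KDR*) and 1 of 5 fibroblast genes (*COL1A1*). In siControl these had 7298, 9.65 and 3389 normalized counts, so *CD68* and *COL1A1* stood above *KRT7* and *EPCAM*. In siControl + TGFβ *COL1A1* had 15874. The markers therefore do not all point to duct cells.

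Because E2F factors are known regulators of such genes, the promoters of 38 of the 43 genes that the RefSeq table (build GRCh38.p14) holds were searched from 250 bases before to 50 bases after the start. *NBN*, *RAD54B*, *FANCI*, *XRCC5* and *PRKDC* had no entry. The E2F word was TTTCCCGC with its variants TTTGGCGC and TTTCGCGC and also TTTGCCGC on either strand. It lay in 7 of 54 promoters of the repair genes (13.0%) and in 3.31% of all 35116 promoters. The 4 windows printed first, each from 90 bases before to 30 bases after the start, belong to genes that TGFβ lowered in siControl cells, and the fifth, *FANCC*, is that of a gene that did not pass the test in any comparison. The E2F word is in capitals.
EXO1: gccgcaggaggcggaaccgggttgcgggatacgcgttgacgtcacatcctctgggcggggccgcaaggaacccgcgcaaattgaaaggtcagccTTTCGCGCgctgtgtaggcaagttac
FANCD2: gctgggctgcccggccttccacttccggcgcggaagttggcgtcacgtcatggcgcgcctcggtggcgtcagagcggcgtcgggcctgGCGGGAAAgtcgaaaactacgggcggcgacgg
TOPBP1: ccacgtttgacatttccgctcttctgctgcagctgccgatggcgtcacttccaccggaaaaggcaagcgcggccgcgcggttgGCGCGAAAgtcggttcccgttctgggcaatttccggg
XRCC2: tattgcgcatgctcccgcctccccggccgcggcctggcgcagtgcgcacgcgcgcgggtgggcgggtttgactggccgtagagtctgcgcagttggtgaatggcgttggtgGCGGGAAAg
FANCC: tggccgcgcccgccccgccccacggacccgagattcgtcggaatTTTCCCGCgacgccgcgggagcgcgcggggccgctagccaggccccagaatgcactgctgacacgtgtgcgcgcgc

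The windows lie at chr1:241848114-241848233 on the plus strand (*EXO1*), chr3:10026347-10026466 on the plus strand (*FANCD2*), chr3:133661912-133662031 on the minus strand (*TOPBP1*), chr7:152676112-152676231 on the minus strand (*XRCC2*) and chr9:95317680-95317799 on the minus strand (*FANCC*). Such a match describes the letters and is not a measured binding site. Of the 19 genes lowered by TGFβ in siControl cells 17 had a promoter in the table, and 6 of them held the word (*EXO1*, *FANCA*, *FANCD2*, *TOPBP1*, *XRCC2* and *XRCC6*), as did 1 of the other 21 genes with a promoter (*FANCC*). The rest of the 17, such as *RAD54L*, *FANCE* and *RAD51AP1*, lacked it. Whether the word has a part in the response to TGFβ was not tested, and the promoters were not matched for GC content. The CCAAT box, searched as CCAAT on either strand, lay in 46.3% of the repair gene promoters and in 34.6% of all. The cell cycle homology region, searched as TTTGAA and also as TTCGAA on either strand, lay in 9.26% and 16.4%.

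Per kb of transcript *XRCC6*, *XRCC5*, *PRKDC* and *H2AFX* had the highest levels. In siControl, *XRCC6* and *XRCC5*, the Ku subunits that open end joining, had 8743 ± 31.9 (SD, n = 2) and 6924 ± 73 normalized counts per kb. *PRKDC*, the kinase subunit that Ku recruits, followed with 2582 ± 18.9, and *H2AFX*, the histone variant phosphorylated around breaks, had 2238 ± 9.37. The lowest levels were those of the strand exchange gene *RAD51D* (53.9 ± 0.274), of the Fanconi anemia translocase *FANCM* (89.1 ± 8.09) and of *BRCA2* (104.2 ± 2.91), a mediator of strand exchange. The Ku genes and *PRKDC* stood at the head of this order in all 4 groups.

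**Figure D1:**
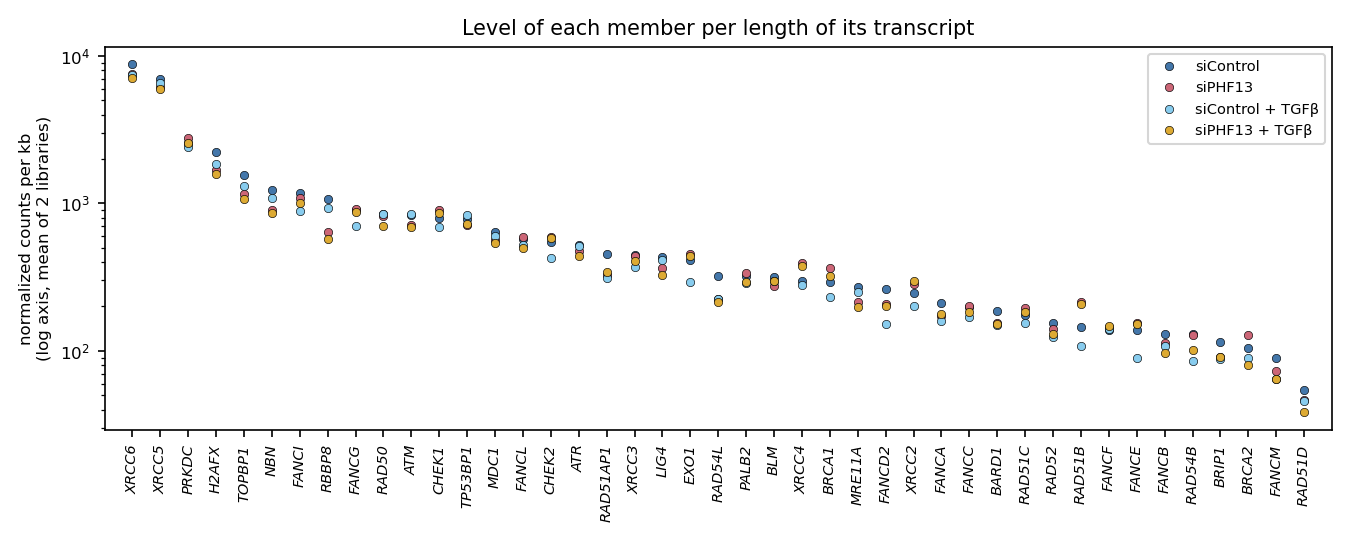
Level of each of the 43 repair genes in normalized counts per kb of transcript (log axis), with 1 point for the mean of the 2 libraries of each group and the genes ordered by their siControl level. *XRCC6* leads with 8743 in siControl and *RAD51D* ends the order with 53.9.

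TGFβ lowered repair genes in siControl cells. The comparison of siControl + TGFβ with siControl asks how the genes respond to TGFβ when *PHF13* is present. At an adjusted p under 0.05 in a limma fit over all 13307 genes, 19 of the 43 genes were lower with TGFβ (44.2%) and 0 were higher, where 6.67% of all genes were lower and 9.21% higher. The log2 fold change was below 0 in 40 of the 43, with a median of -0.25 beside -0.01 over all genes. In bulk RNA, fewer cells of a type and less RNA per cell cannot be told apart. With an absolute log2 fold change over 0.58 as well, 3 of them were lower and 0 higher, where 1.52% of all genes were lower and 3.27% higher.

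*FANCD2*, which is monoubiquitylated together with *FANCI* to start crosslink repair, had the lowest fold change of the 43. Its normalized counts were 1344.0 and 1321.8 in siControl, and 733.1 and 829.0 in siControl + TGFβ. The groups did not overlap, and the TGFβ-treated cells kept 58.5% of the siControl level (log2 fold change -0.77, standard error 0.10, limma adjusted p = 0.000149). The call held without any 1 library, with values from -0.86 to -0.68. The gene lies at chr3:10068054-10143616 (hg19, as are the coordinates of the genes that follow).

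*FANCE* (chr6:35420115-35434881), which joins the Fanconi core complex to *FANCD2*, was measured at 330.1 and 381.1 normalized counts in siControl and at 229.6 and 234.5 in siControl + TGFβ. Both treated libraries were below both controls (log2 fold change -0.61, standard error 0.17, limma adjusted p = 0.0257). *RAD54B* on chromosome 8, a motor protein of strand exchange, gave 367.1 and 427.1 in siControl and 239.3 and 288.0 with TGFβ, again without overlap (-0.59, standard error 0.17, limma adjusted p = 0.0299). Of the exon bases of *RAD54B*, 65.5% are shared with the annotated gene *FSBP*, so reads of the pair could be split between them. *FANCE* lost its call without either siControl library or either siControl + TGFβ library, with values from -0.71 to -0.51, and *RAD54B* without siControl replicate 1 or 2 or siControl + TGFβ replicate 1, with values from -0.72 to -0.46.

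The other 16 genes passed the adjusted p alone and came from every step of repair. Among the genes of strand exchange, *RAD51AP1*, which promotes invasion of the duplex, fell by 0.54 on the log2 scale, the translocase *RAD54L* fell by 0.53, and *XRCC2* and *XRCC3* each fell by 0.28. Of the Fanconi core complex, *FANCA* fell by 0.41 and *FANCG* fell by 0.37, and *FANCI*, the partner of *FANCD2*, fell by 0.40. The resection genes *EXO1*, a nuclease, and *RBBP8*, which encodes CtIP, fell by 0.52 and fell by 0.22.

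Of the genes around BRCA1, the helicase gene *BRIP1* fell by 0.39 and *BRCA1* itself fell by 0.32. Of the checkpoint, *CHEK2* fell by 0.37, *H2AFX* and the ATR activator *TOPBP1* each fell by 0.27, and *CHEK1* fell by 0.21. Of end joining, *XRCC6* alone passed, with -0.25. The apex kinases did not pass: *ATM* stood at 0.03 and *ATR* at -0.01.

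The number of lowered repair genes depended on single libraries. It was 5 without siControl replicate 1 or without siControl replicate 2, 6 without siControl + TGFβ replicate 1 and 12 without siControl + TGFβ replicate 2, fits in which the group left with 1 library is assumed to vary like the others. Past both thresholds the number was 1 without siControl replicate 1 or 2 or siControl + TGFβ replicate 1, and 6 without siControl + TGFβ replicate 2. *FANCD2*, *EXO1*, *FANCI* and *RAD54L* passed in every such fit. Of the exon bases of *RAD54L*, 26.2% are shared with the annotated gene *LRRC41*. Among the other lowered genes, *XRCC3* (34.2%), *FANCA* (27.4%) and *CHEK1* (18.2%) share exon bases with other annotated genes too.

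TGFβ also moved genes of the cell cycle. The Seurat package lists genes that mark S phase and G2/M, and 4 of the 43 repair genes are among its S phase genes (*RAD51AP1*, *EXO1*, *BLM* and *BRIP1*). Of these lists, 28 of 40 S phase genes were lower with a median of -0.37, and 48 of 54 G2/M genes were lower with a median of -0.44. In both lists 0 genes were higher, where 6.67% of all genes were lower and 9.21% higher. Their part in the fall of the repair genes was not tested. The duct markers *KRT8*, *KRT18* and *KRT19* fell (-0.68, -0.57 and -0.84) and *COL1A1*, the 1 fibroblast marker present, rose by 2.23, and their part was not tested either.

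In siPHF13 cells few repair genes passed the test with the same treatment. The comparison of siPHF13 + TGFβ with siPHF13 shares no library with the one above, although 1 fit over all 8 libraries gave the spread for both. In it 1 of the 43 genes was lower and 0 were higher, by the adjusted p alone and by both thresholds, where 0.857% of all genes were lower and 2.22% higher by the adjusted p, and 0.218% and 1.13% by both. Without siPHF13 + TGFβ replicate 1 the lower genes numbered 2. The log2 fold change was below 0 in 36 of the 43, and their median was -0.09 beside -0.01 over all genes. The S phase and G2/M lists had medians of -0.06 and -0.16 here, with 0 of 40 and 7 of 54 genes lower.

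The gene that passed was *BRCA2* (chr13:32889223-32974405). It had 1491.0 and 1594.1 normalized counts in siPHF13 and 1029.9 and 887.4 in siPHF13 + TGFβ, so the groups did not overlap (log2 fold change -0.69, standard error 0.097, limma adjusted p = 0.000845). The call held without any 1 library, with values from -0.80 to -0.58. In siControl cells *BRCA2* went from 1270.0 and 1220.9 to 1011.2 and 1125.2, a change of -0.22 that did not pass (standard error 0.097, adjusted p = 0.145). Its response to TGFβ was more negative in siPHF13 than in siControl cells by 0.47 on the log2 scale (-0.47, 95% interval -0.76 to -0.17), a difference that did not pass either (limma adjusted p = 0.22).

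**Figure D2:**
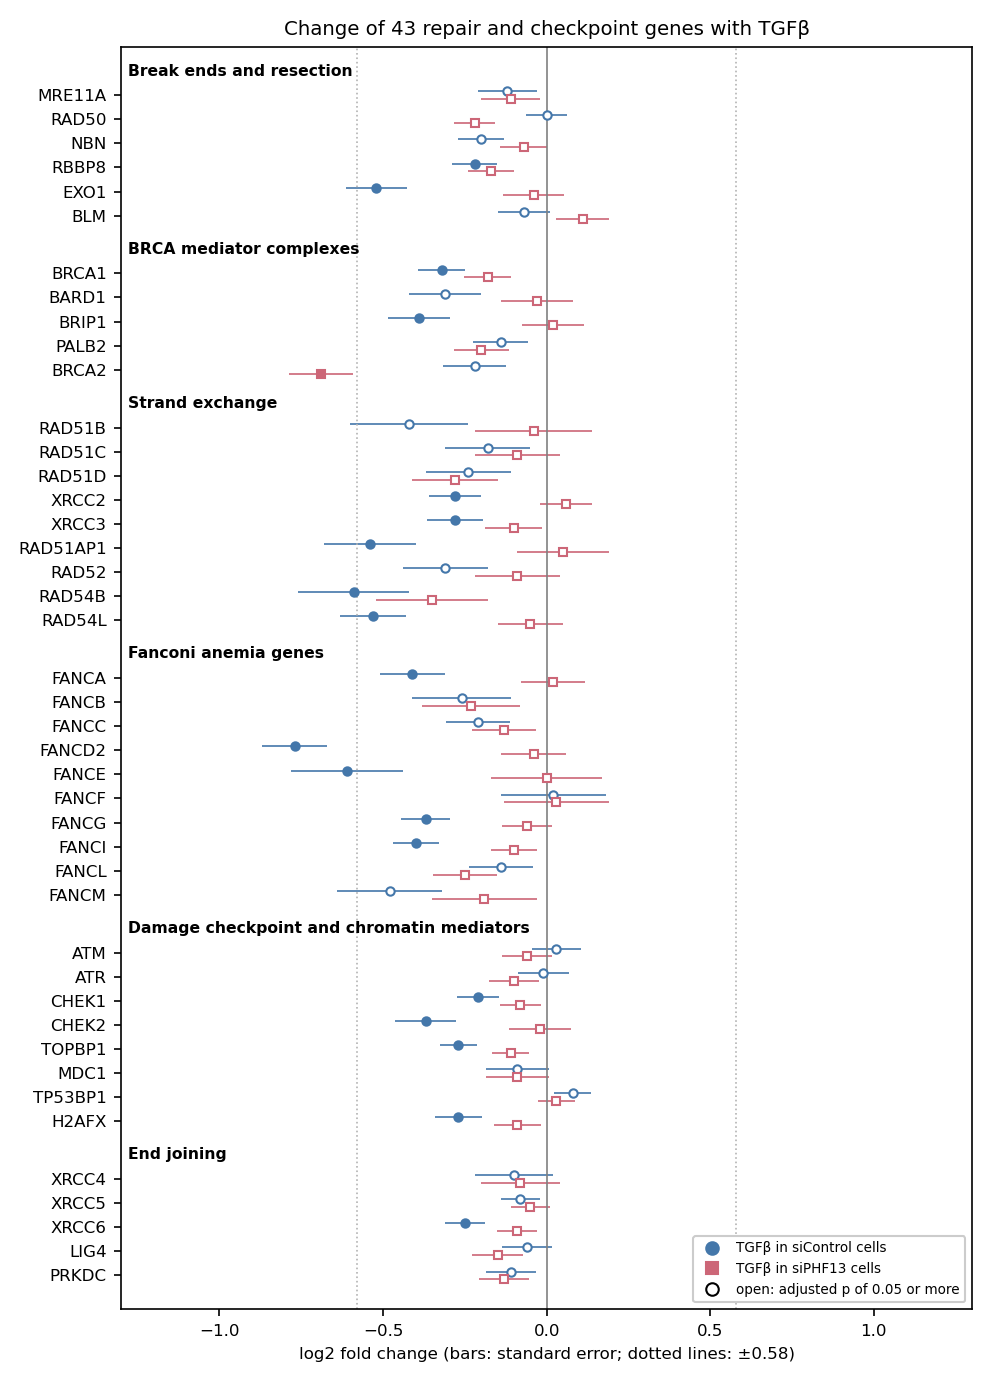
Log2 fold change of the 43 repair genes with TGFβ in siControl cells (circles) and in siPHF13 cells (squares), ordered by role, with bars for the standard error, filled symbols for an adjusted p under 0.05 and dotted lines at ±0.58. In siControl cells 19 symbols are filled and all lie left of 0, whereas in siPHF13 cells the 1 filled square is *BRCA2* at -0.69.

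The 19 genes lowered in siControl cells were followed in the siPHF13 libraries, which do not enter their fold changes in siControl cells. The siPHF13 libraries do enter the shared estimate of spread behind those 19 calls, so this is not an independent check. With TGFβ in siPHF13 cells, 15 of the 19 had a log2 fold change below 0 and 4 above, with a median of -0.06 and a range from -0.35 (*RAD54B*) to 0.06 (*XRCC2*), and none of the 19 passed. The median of the other 24 was -0.10. *FANCD2*, for example, stood at 967.8 and 1147.2 normalized counts in siPHF13 and at 1007.2 and 1044.3 in siPHF13 + TGFβ, which overlap (-0.04, 95% interval -0.26 to 0.18).

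Whether the responses of the siControl and siPHF13 cells differed was tested by the interaction, the response to TGFβ in siPHF13 minus that in siControl. It passed for 1 of the 43 genes, *FANCD2*, with 0.73 on the log2 scale (standard error 0.14, 95% interval 0.42 to 1.04, limma adjusted p = 0.046). Of all genes, 0.0902% were higher and 0.323% lower by the adjusted p, and 0.0601% and 0.248% by both thresholds. Without a siControl library, a siControl + TGFβ library, siPHF13 replicate 1 or siPHF13 + TGFβ replicate 2 the call was lost. The values with 1 library left out ran from 0.61 to 0.86. The call was also lost with edgeR and with DESeq2 (0.61 in both). Both ran without siPHF13 replicate 1, whose removal alone lost the call in limma, so they are not a separate comparison of methods. Without siPHF13 + TGFβ replicate 1, 3 of the 43 genes were higher and 1 was lower.

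All 19 genes lowered in siControl cells had an interaction above 0, with a median of 0.31. Since the response in siControl enters both the choice of the genes and the interaction, this is a description. The next values after *FANCD2* among the 43 were 0.61 for *FANCE*, 0.59 for *RAD51AP1* and 0.48 for both *EXO1* and *RAD54L*, and none of these passed. Of the related genes outside the 43, *UBE2T*, the conjugating enzyme for *FANCD2*, passed both thresholds (0.58, limma adjusted p = 0.0326).

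Depletion of *PHF13* without TGFβ moved the repair genes in both directions. Of the 43 genes, 14 were lower in siPHF13 than in siControl (32.6%) and 6 higher (14.0%), where 24.3% of all genes were lower and 23.1% higher. Their median was -0.14 beside 0.00 over all genes. By both thresholds 1 was lower and 0 higher, where 10.4% of all genes were lower and 7.95% higher.

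*RBBP8* (chr18:20378224-20606451), whose product CtIP starts the resection of break ends with the MRE11 complex, was the gene past both thresholds. It had 3516.0 and 3519.3 normalized counts in siControl and 2085.8 and 2105.1 in siPHF13. The gap between the groups was far wider than the spread within them, and 59.6% of the level was left (log2 fold change -0.75, standard error 0.069, limma adjusted p = 1.3e-06). In the presence of TGFβ the values were 3096.3 and 2965.3 in siControl and 1808.2 and 1930.8 in siPHF13, which is 61.7% of the level (-0.70, standard error 0.069, limma adjusted p = 2.16e-06). *RBBP8* was the only gene of the 43 past both thresholds in both depletion comparisons, and it kept both calls in every alternative.

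The lower genes besides *RBBP8* included the rest of its partner complex in part. *NBN*, the adaptor that brings ATM to the break, fell by 0.47 on the log2 scale and the nuclease *MRE11A* fell by 0.34, while the third subunit *RAD50* stood at -0.05 and did not pass. In strand exchange *RAD54L* fell by 0.53 and *RAD51AP1* fell by 0.47. In the checkpoint *TOPBP1* fell by 0.43, *H2AFX* fell by 0.41 and *ATM* fell by 0.21.

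*BRIP1* and *FANCD2* each fell by 0.34 and *FANCA* fell by 0.28. All end joining genes except *XRCC4* and *PRKDC* were lower: *LIG4*, the ligase, fell by 0.25, and the Ku genes *XRCC6* and *XRCC5* fell by 0.21 and fell by 0.17. *XRCC4*, the scaffold of that ligase, rose by 0.41, the opposite direction to *LIG4*.

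The 6 higher genes were *RAD51B* (0.57), *XRCC4* (0.41), *BRCA1* (0.32), *BRCA2* (0.31), *XRCC2* (0.21) and *CHEK1* (0.18). *RAD51B* and *XRCC2* sit in 1 complex with *RAD51C* and *RAD51D*, which stood at 0.16 and -0.21 and did not pass.

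These counts too changed with single libraries. The lower genes numbered 6 without siControl replicate 1 or 2 and 8 without siPHF13 replicate 2, and the higher genes 2 without siControl replicate 1 or 2 or siPHF13 replicate 2 and 3 without siPHF13 replicate 1. Past both thresholds there were 2 without siControl replicate 2 and 4 without siPHF13 replicate 1. After each library had been corrected for GC content and transcript length, 9 were lower, and *ATM*, *BRIP1*, *LIG4*, *MRE11A* and *XRCC5* no longer passed.

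**Figure D3:**
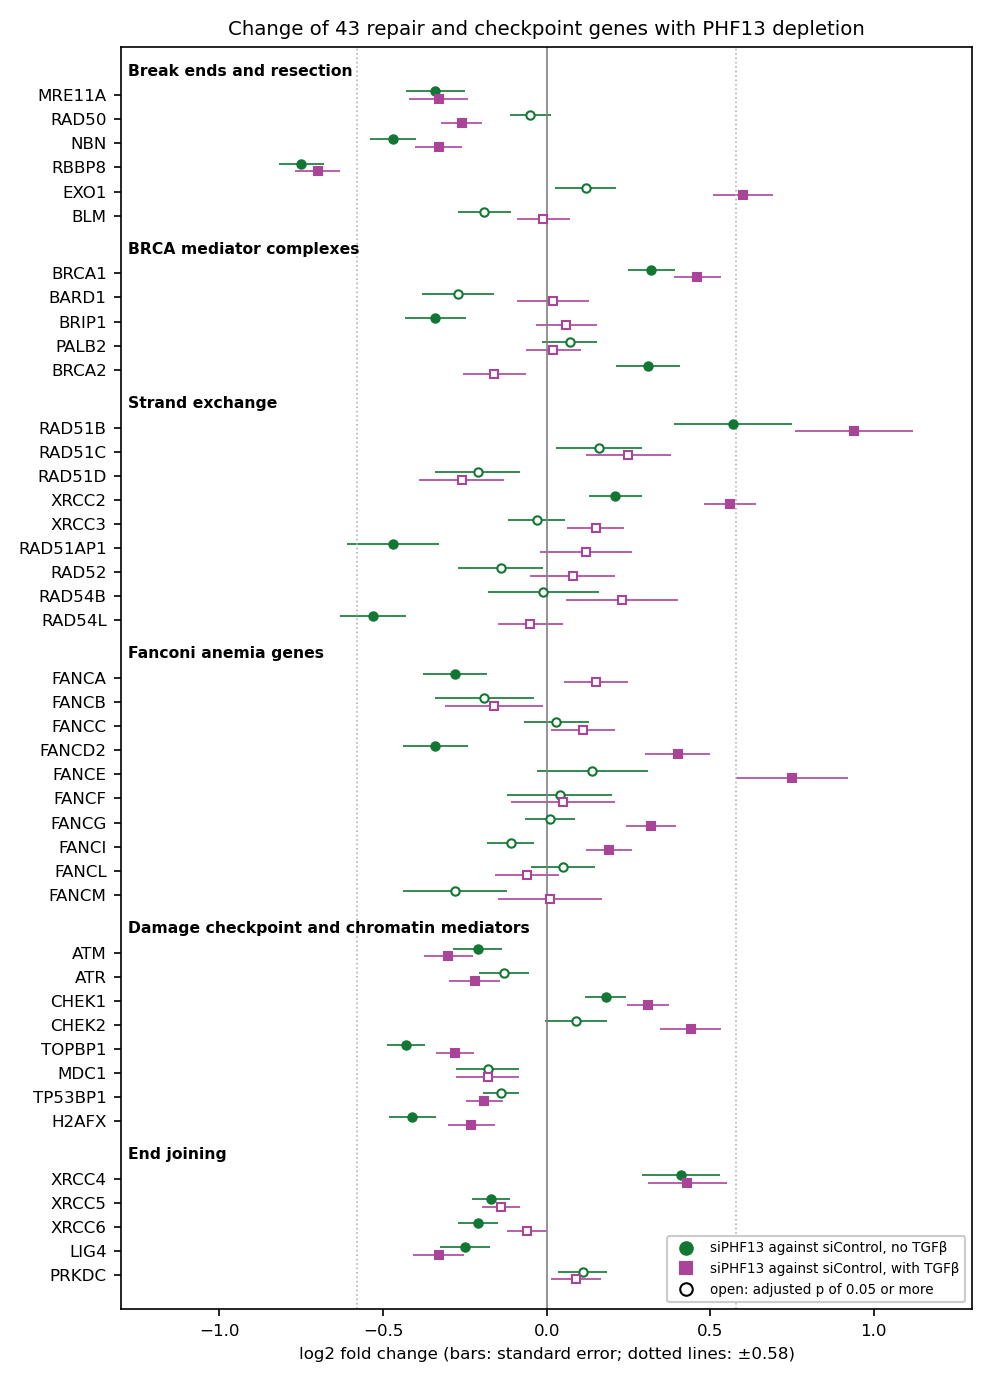
Log2 fold change of the 43 repair genes with *PHF13* depletion, without TGFβ (circles) and with TGFβ (squares), with bars for the standard error, filled symbols for an adjusted p under 0.05 and dotted lines at ±0.58. *RBBP8* lies left of the line in both comparisons (-0.75 and -0.70), and *RAD51B*, *FANCE* and *EXO1* lie right of it with TGFβ (0.94, 0.75 and 0.60).

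Among TGFβ-treated cells, depletion of *PHF13* left 10 of the 43 genes lower (23.3%) and 11 higher (25.6%), shares near those of all genes, of which 25.9% were lower and 24.5% higher. The median was 0.02 beside 0.00 over all genes. By both thresholds 1 was lower, the *RBBP8* gene above, and 3 were higher, where 11.7% of all genes were lower and 8.81% higher. This comparison uses the siControl + TGFβ libraries, which also enter the TGFβ comparison in siControl cells, so the 2 sets of values are not independent.

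*RAD51B* (chr14:68286496-69196935), a member of the complex with *XRCC2*, had the highest fold change. It was counted at 163.9 and 170.7 in siControl + TGFβ and at 344.4 and 302.2 in siPHF13 + TGFβ, with no overlap (log2 fold change 0.94, standard error 0.18, limma adjusted p = 0.000663). Without TGFβ it had 192.5 and 259.5 in siControl and 293.4 and 376.8 in siPHF13 (0.57, standard error 0.18, limma adjusted p = 0.0184). The call without TGFβ was lost without siControl replicate 1 or siPHF13 replicate 2, with values from 0.36 to 0.79, while the call with TGFβ held without any 1 library (0.85 to 1.04).

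*FANCE* had 398.3 and 382.1 normalized counts in siPHF13 + TGFβ, above the 229.6 and 234.5 of siControl + TGFβ (0.75, standard error 0.17, limma adjusted p = 0.00235). Without TGFβ the 2 siPHF13 libraries, at 475.4 and 321.6, enclosed those of siControl (0.14, 95% interval -0.23 to 0.51). *EXO1* (chr1:242011269-242058450), the nuclease of long-range resection, had 914.2 and 1094.4 in siControl + TGFβ and 1538.3 and 1490.9 in siPHF13 + TGFβ (0.60, standard error 0.093, limma adjusted p = 0.000129). Without TGFβ its values of 1411.3 and 1455.1 in siControl and of 1504.9 and 1603.0 in siPHF13 did not overlap, but the difference did not pass (0.12, 95% interval -0.08 to 0.32).

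**Figure D4:**
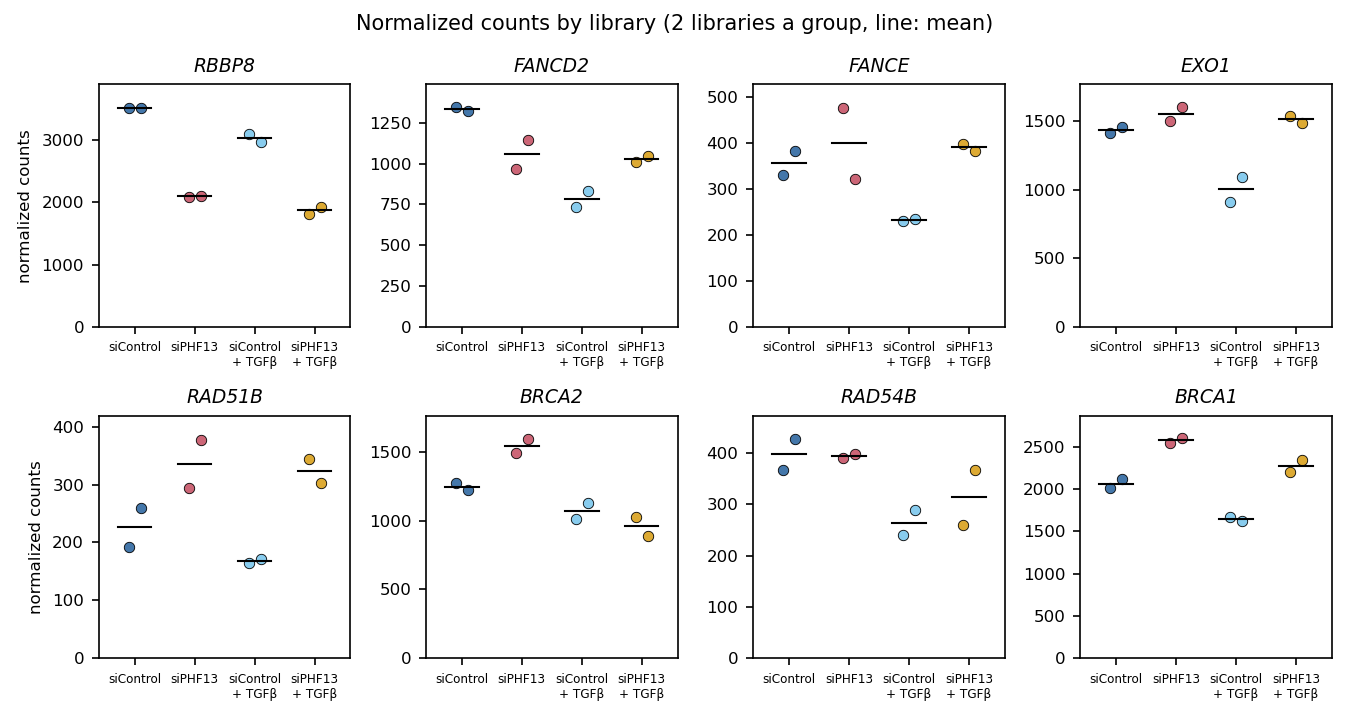
Normalized counts of the 7 repair genes past both thresholds in at least 1 comparison and of *BRCA1*, with 1 point per library and a line for the mean of the 2 libraries in each of the 4 groups. *RBBP8* is lower in both siPHF13 groups (1808.2 to 2105.1) than in both siControl groups (2965.3 to 3519.3), whereas *FANCD2*, *EXO1* and *FANCE* are lowest in siControl + TGFβ.

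The other 8 higher genes passed the adjusted p alone. *XRCC2* rose by 0.56 on the log2 scale, *BRCA1* rose by 0.46, *CHEK2* rose by 0.44, *XRCC4* rose by 0.43, *FANCD2* rose by 0.40, *FANCG* rose by 0.32, *CHEK1* rose by 0.31 and *FANCI* rose by 0.19. The *FANCI* call was lost without a siControl library, siControl + TGFβ replicate 1, a siPHF13 library or siPHF13 + TGFβ replicate 2, with values from 0.11 to 0.26. That of *FANCD2* was lost without siControl + TGFβ replicate 1 (lowest value 0.31), and that of *XRCC4* without siControl + TGFβ replicate 2 (lowest value 0.33). *BRCA1* was measured at 1676.4 and 1627.2 normalized counts in siControl + TGFβ and at 2199.0 and 2347.5 in siPHF13 + TGFβ, without overlap.

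The lower genes besides *RBBP8* included sensors and signal transducers. All 3 genes of the MRE11 complex passed: *MRE11A* and *NBN* each fell by 0.33 and *RAD50* fell by 0.26. *ATM* fell by 0.30, *ATR* fell by 0.22, *TOPBP1* fell by 0.28, *H2AFX* fell by 0.23 and *TP53BP1*, which protects ends from resection, fell by 0.19. The ligase *LIG4* fell by 0.33.

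With values corrected for GC content and transcript length, 5 genes were lower under TGFβ, not all of which had passed without the correction. *ATM* (-0.08), *ATR* (-0.01), *MRE11A* (-0.13), *RAD50* (-0.06), *TOPBP1* (-0.12) and *TP53BP1* (-0.01) no longer passed. The transcripts of *ATM* and *TP53BP1* have 12915 and 10369 bases, and 91.0% of the exon bases of *RAD50* and 36.0% of those of *TP53BP1* are shared with other annotated genes. Without siControl + TGFβ replicate 2 the lower genes numbered 6.

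The depletion comparisons share no library, although their calls come from 1 fit with a spread estimated over all 8 libraries. Of the 43 genes, 13 passed in both, which is 65.0% of the 20 without TGFβ and 61.9% of the 21 with TGFβ. Over all genes these shares were 81.6% and 76.7%. Of the 13 genes, 12 had the same direction in both, beside 99.7% over all genes. The sign of the fold change was the same in 31 of the 43 (72.1%), whether or not they passed, beside 84.5% of all genes. *MRE11A*, *NBN*, *RBBP8*, *ATM*, *TOPBP1*, *H2AFX* and *LIG4* were lower in both, and *BRCA1*, *RAD51B*, *XRCC2*, *CHEK1* and *XRCC4* were higher in both. After correction for GC content and transcript length, *MRE11A* and *ATM* passed in neither comparison. With that correction *LIG4* did not pass without TGFβ, and *TOPBP1* did not pass with it. *FANCD2* was lower without TGFβ (-0.34) and higher with it (0.40), the difference that the interaction above tests. Neither of these 2 calls held in every alternative, with values from -0.46 to -0.21 without TGFβ and from 0.31 to 0.52 with it.

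The depletion counts by role are given beside the shares of all genes stated above, 24.3% lower and 23.1% higher without TGFβ and 25.9% and 24.5% with it. Of the 6 genes of break ends and resection, 3 were lower and 0 higher without TGFβ, and 4 were lower and 1 higher with it, with medians of -0.27 and -0.30. Correction for GC content and length removes *MRE11A* from both counts and *RAD50* from the second. Of the 5 genes of the BRCA mediator complexes, 1 was lower and 2 higher without TGFβ, and 0 were lower and 1 higher with it. The lower gene, *BRIP1*, did not pass after that correction.

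Of the 9 strand exchange genes, 2 were lower and 2 higher without TGFβ, and 0 lower and 2 higher with it. Of the 10 Fanconi genes, 2 were lower and 0 higher without TGFβ, and 0 were lower and 4 higher with it, with medians of -0.05 and 0.13. Of the 8 checkpoint and chromatin genes, 3 were lower and 1 higher, and 5 lower and 2 higher. Correction for GC content and length removes *ATM* from both lower counts, and *ATR*, *TOPBP1* and *TP53BP1* from the second. Of the 5 end joining genes, 3 were lower and 1 higher, and 1 lower and 1 higher. The correction removes *LIG4* and *XRCC5* from the lower count without TGFβ. These roles were not tested against each other.

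Over the 5 comparisons 30 of the 43 genes (69.8%) passed the adjusted p at least once, beside 62.6% of all genes. The 13 that never passed were the helicase *BLM*, *BARD1*, the partner of BRCA1, *PALB2*, which bridges BRCA1 and BRCA2, *RAD51C*, *RAD51D*, *RAD52*, *FANCB*, *FANCC*, *FANCF*, *FANCL*, *FANCM*, *MDC1*, the reader of phosphorylated H2AX, and *PRKDC*. Between groups their log2 fold changes ran from -0.48 (*FANCM*, TGFβ in siControl, limma adjusted p = 0.0541) to 0.25 (*RAD51C*, depletion with TGFβ).

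Related genes outside the 43 were read in the same fit. Of 44 other genes of recombination and the Fanconi pathway, 13 were lower and 0 higher with TGFβ in siControl, 8 lower and 12 higher with depletion alone, 6 lower and 18 higher with depletion under TGFβ, and 1 lower and 0 higher with TGFβ in siPHF13. In the same order the shares were 29.5% lower and 0% higher, 18.2% and 27.3%, 13.6% and 40.9%, and 2.27% and 0%. Over all genes they were 6.67% and 9.21%, 24.3% and 23.1%, 25.9% and 24.5%, and 0.857% and 2.22%. The medians of the 44 genes were -0.18, 0.00, 0.15 and -0.04, beside -0.25, -0.14, 0.02 and -0.09 for the 43. *RMI2*, a subunit of the BLM complex, was lower with TGFβ (-0.68) and higher with depletion under TGFβ (1.22), and *MND1*, a cofactor of strand exchange, fell by 0.61 with TGFβ. The nuclease subunit *EME2* was lower with depletion (-0.76 without and -0.68 with TGFβ), whereas *EME1* rose by 0.85 and the RPA subunits *RPA2* and *RPA3*, which coat single-stranded DNA, rose by 0.61 and by 0.74 under TGFβ.

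In the same comparison the meiotic recombinase *DMC1* rose by 2.05, with a standard error of 0.57 beside 0.15 for *RMI2*, so its value is less precise. Of 24 other checkpoint and mediator genes, 6 were higher (25.0%) and 7 lower (29.2%) with depletion under TGFβ. These shares were near the 24.5% and 25.9% of all genes. With depletion alone 5 were higher (20.8%) and 7 lower (29.2%), beside 23.1% and 24.3% of all genes. The partners *BRE* and *BRCC3* of the BRCA1-A complex went to 0.60 and -0.66 under TGFβ. Of 13 other end joining genes 4 were higher (30.8%) and 0 lower with depletion alone, beside the same shares of all genes. Under TGFβ 5 were higher (38.5%) and 0 lower, led by *PARP2*, a sensor of strand breaks (0.80).

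The cell cycle lists were counted in the depletion comparisons too. Of 40 S phase genes, 11 were lower and 8 higher with depletion alone (median -0.02), and 3 lower and 21 higher under TGFβ (median 0.26). Of 54 G2/M genes, 24 were lower (44.4%) and 4 higher (7.41%) with depletion alone (median -0.16). Under TGFβ 10 were lower (18.5%) and 20 higher (37.0%, median 0.12). Of the cell type markers, *CD68* was higher with depletion (0.77 without and 0.79 with TGFβ), and *COL1A1* was lower (-0.83 and -1.72). Of the 5 duct markers, *EPCAM* (0.78 and 0.94) and *KRT19* (0.25 and 0.76) were higher in both comparisons, *KRT18* was lower without TGFβ (-0.33) and stood at -0.07 with it, and *KRT8* (-0.16 and 0.15) and *KRT7* (-0.02 and -0.01) did not pass. The part of these lists and markers in the values of the repair genes was not tested.

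**Figure D5:**
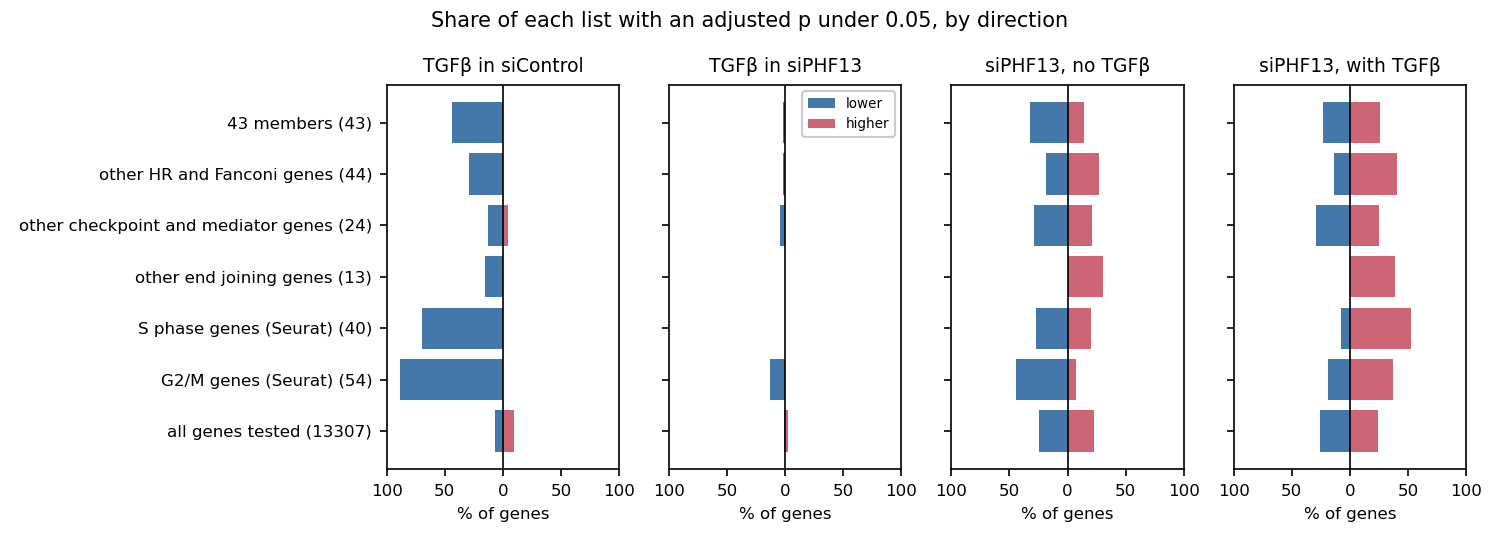
Percent of the genes of each list with an adjusted p under 0.05, lower to the left and higher to the right, in the 4 comparisons between groups (number of genes tested in parentheses). With TGFβ in siControl cells 44.2% of the 43 repair genes and 88.9% of the G2/M genes were lower beside 6.67% of all genes, and in siPHF13 cells 1 of the 43 and 7 of the 54 were lower.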

How the data were processed

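Paired-end mRNA libraries of Panc-1 cells were analysed, 2 per group. Per the submitters' processing notes and the methods of the study, the authors trimmed reads with Trim Galore 0.4.1, mapped them with STAR 2.7.0 to hg19, counted exon reads with HTSeq 0.12.4 and normalized them with DESeq2. The strand setting and annotation release are not given in the sources used here. The deposited values are a signal, gene counts divided by the DESeq2 size factor of each library. The 3 deposited tables of the authors' own comparisons (fold changes and p-values) were not used.

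All values of a library were whole multiples of 1 step (within 0.01 reads), which gave the reads per library. In siPHF13 replicate 1 the step of 0.995 was near 1, and this library was left out of the count models. They ran on 7 libraries, although the values of this library were whole multiples of its step as well.

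log2(normalized count + 1) was fitted with limma 3.58.1 (R 4.3.3, trended prior variance) over all 8 libraries without a replicate block. Genes needed 10 normalized counts in 2 libraries, which removed 0 genes. P-values were two-sided and adjusted by Benjamini-Hochberg over 13307 genes, with thresholds of 0.05 and, as in the study, 0.58 on the log2 scale. A fold change on this scale understates that of low genes. The fit was tested on simulated data.

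Alternatives were a pseudocount of 5, no filter, a mean of at least 100, TMM scaling (edgeR 4.0.16), only the libraries compared, a replicate block, edgeR and DESeq2 1.42.0 on recovered reads, correction for GC content and length with splines of 5 degrees of freedom (13111 genes with a value), no fold threshold and each library left out. Coordinates and transcript lengths come from GENCODE on hg19, promoters from RefSeq on GRCh38.p14, and the cell cycle lists from Seurat 5.3.0.

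The 43 genes and the lists beside them were chosen with earlier results of these data known. All 43 were accounted for, those past both thresholds per library, and of the other recombination, checkpoint and end joining lists the genes past both thresholds, up to 5 a direction by comparison. The cell cycle lists are given as counts and medians. *BRCA1* in the plot by library was added after its values had been seen. Some results of the lists fixed for the analysis are not reported here.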

Additional observations from a re-analysis of the deposited data

Results flagged for a closer look

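The response of *FANCD2* to TGFβ differed between siPHF13 and siControl cells by 0.73 on the log2 scale (interaction term in limma, standard error 0.14, adjusted p = 0.046). The adjusted p ranged from 0.0131 to 0.28 over 16 alternatives. Both siControl + TGFβ libraries lay below both siControl libraries, while the 2 siPHF13 + TGFβ libraries lay within the range of the siPHF13 libraries. The S phase and G2/M lists had median interactions of 0.30 and 0.27, and their part in this value was not tested.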

How the results depend on the processing

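Of 62 values of single repair genes past the adjusted p, 22 passed in every alternative. Over 1053 combinations of value and alternative, 889 kept direction and call, 164 kept the direction and lost the call, and 0 reversed. Replicate numbers did not pair the libraries (deviations of same-numbered libraries correlated at -0.089 to 0.05), and with a replicate block 1 of the 62 calls was lost (*RBBP8* with TGFβ in siControl, -0.22). Without a fold threshold 6308 genes and 20 repair genes passed for depletion, 2114 and 19 for TGFβ in siControl, 6712 and 21 for depletion with TGFβ, and 409 genes for TGFβ in siPHF13. For depletion alone, edgeR and DESeq2 each put 4 repair genes past both thresholds, with 9 and 8 lower and 3 higher in each at the adjusted p. With correction for GC content and length 9 were lower, and 5 under TGFβ. For the interaction, edgeR called 27 genes past both thresholds, of which 3.7% were higher (19.5% of 41 in limma), and both tools called 0 repair genes. The causes were not tested, and the count models hold 1 library of siPHF13.

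With each library left out in turn, the repair genes past both thresholds numbered 1 to 4 for depletion, 1 to 6 for TGFβ in siControl and 0 to 2 for the interaction. At the adjusted p, 6 to 18 were lower and 2 to 6 higher for depletion, 5 to 22 lower for TGFβ in siControl, 6 to 11 lower for depletion with TGFβ, 1 to 2 lower for TGFβ in siPHF13, and 0 to 1 lower and 0 to 3 higher for the interaction, where 12 to 111 genes passed both thresholds. No interaction can be had from only the libraries compared. The lowest value of a repair gene in any library was 163.9 normalized counts, so the spread over 2 libraries limits the precision.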
